A study of Mus musculus with 8 samples.

Results

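The striated muscle and acetylcholine receptor genes are 46 genes of the sarcomere, the muscle form of the acetylcholine receptor, the excitation machinery and the muscle regulators, taken by gene name from the 34964 gene names on the array. They have 62 of the 55681 probes, and 11 of them have more than 1 probe. The genes were split by the muscle that normally uses them, with 23 skeletal, 7 cardiac, 9 used by both and 7 of the neuromuscular synapse.

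Skeletal and cardiac muscle share a sarcomere in which myosin filaments pull on actin filaments, and troponin on the thin filament lets calcium switch the pull on. Skeletal and cardiac muscle build it from partly different genes, so that many proteins have a skeletal and a cardiac form. At the neuromuscular synapse the motor nerve releases acetylcholine onto a receptor of alpha, beta and delta subunits with a gamma subunit in fetal muscle or an epsilon subunit in adult muscle, held in place by Rapsn and the kinase Musk. Mature medullary thymic epithelial cells (mTEC) transcribe many genes of other tissues at low level, muscle genes among them, and display the proteins to developing T cells. The muscle receptor is the main autoantigen of myasthenia gravis, and titin and the ryanodine receptor are targets in patients with thymoma.

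The series compared mTEC of Cdx1-/- mice, which lack a homeobox transcription factor of the intestinal epithelium, with mTEC of Cdx1+/+ mice, and placed small intestine epithelial cells (SIEC) beside them. All animals had a mixed background of C57BL/6 and 129, and no age or sex is used here. The mTEC were sorted as Epcam+ UEA1+ CD45- cells high for CD80 and MHCII with dead cells removed, and each of 3 Cdx1+/+ and 3 Cdx1-/- replicates pooled 4 to 6 thymi. The SIEC were sorted as living Epcam+ CD45- cells pooled from 3 mice, with 1 array labelled Cdx1+/+ and 1 labelled Cdx1-/-. RNA was extracted and labelled by a service company, and each of the 8 samples was read on 1 single-colour Agilent array. Levels below are on a log2 scale on which 0 is the 75th percentile of signals on that array and 1 unit is a 2-fold difference. A level depends on the probe, so levels are compared between arrays and never between genes. In bulk samples fewer cells of a type and less RNA per cell cannot be told apart.

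The Cdx1 probe was well above background on all 8 arrays, at 5.88, 5.90 and 5.96 in Cdx1+/+ mTEC and 4.80, 4.98 and 5.00 in Cdx1-/- mTEC. The SIEC array labelled Cdx1+/+ read 4.87 and that labelled Cdx1-/- read 6.48, which goes against those labels, so the SIEC pair is described by label only. No source used here says whether the probe lies in the deleted part. Arrays of 1 genotype correlated by at least 0.9879 in mTEC. Slide 1 held the 3 Cdx1+/+ mTEC arrays and Cdx1-/- mTEC 2 and 3, and slide 2 held Cdx1-/- mTEC 1 and both SIEC arrays. Of 10 mTEC marker genes 8 were higher in mTEC than in SIEC and 2 were lower, and all 10 enterocyte markers were lower in mTEC. Over all genes tested 34.3% were higher and 49.3% lower in mTEC.

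Promoter sequences show where myogenic factors could read these genes, since MyoD, myogenin and their relatives bind the E-box CANNTG. RefSeq promoters of GRCm38.p6 were matched by symbol for 38 of the 46 genes, in 44 windows of 250 bases before the start. The motif, which reads as CANNTG on both strands, was found in 38 of the 44 windows (86.4%) and in 66.2% of all 32851 windows. Its core form CAGCTG was found in 43.2% of the member windows and 13.0% of all windows. By form, it was in 9 of 18 skeletal, 5 of 13 shared, 4 of 5 synapse and 1 of 8 cardiac windows. The cardiac share was thus close to that of all windows. The windows of 4 receptor subunits follow, with Tnnc1 and Myl7, which differed between the genotypes, and E-boxes in capitals.
Chrna1, chr2:73580339-73580588, minus strand: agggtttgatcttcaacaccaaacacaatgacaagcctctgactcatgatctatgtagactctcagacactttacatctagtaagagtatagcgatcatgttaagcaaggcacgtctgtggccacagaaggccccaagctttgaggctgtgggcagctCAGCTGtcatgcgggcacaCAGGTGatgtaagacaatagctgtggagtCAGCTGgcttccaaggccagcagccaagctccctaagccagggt
Chrnb1, chr11:69795938-69796187, minus strand: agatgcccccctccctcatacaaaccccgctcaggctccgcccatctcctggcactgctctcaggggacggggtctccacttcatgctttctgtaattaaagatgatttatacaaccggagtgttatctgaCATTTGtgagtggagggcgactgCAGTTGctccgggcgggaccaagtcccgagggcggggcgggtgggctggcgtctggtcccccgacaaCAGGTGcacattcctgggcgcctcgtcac
Chrng, chr1:87205561-87205810, plus strand: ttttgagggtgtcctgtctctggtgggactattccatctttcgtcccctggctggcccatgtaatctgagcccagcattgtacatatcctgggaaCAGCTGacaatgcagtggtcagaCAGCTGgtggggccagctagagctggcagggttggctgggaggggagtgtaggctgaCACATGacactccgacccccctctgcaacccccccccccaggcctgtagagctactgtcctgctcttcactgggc
Chrne, chr11:70619195-70619444, minus strand: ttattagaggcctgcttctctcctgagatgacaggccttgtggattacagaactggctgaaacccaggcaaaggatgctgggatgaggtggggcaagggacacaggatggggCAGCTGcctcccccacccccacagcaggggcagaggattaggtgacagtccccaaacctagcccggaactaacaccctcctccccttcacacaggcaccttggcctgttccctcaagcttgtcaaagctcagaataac
Tnnc1, chr14:31208062-31208311, plus strand: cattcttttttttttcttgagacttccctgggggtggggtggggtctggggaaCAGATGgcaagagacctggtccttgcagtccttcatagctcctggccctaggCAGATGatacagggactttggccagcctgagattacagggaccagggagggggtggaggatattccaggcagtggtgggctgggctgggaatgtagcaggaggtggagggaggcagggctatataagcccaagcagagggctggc
Myl7, chr11:5898783-5899032, minus strand: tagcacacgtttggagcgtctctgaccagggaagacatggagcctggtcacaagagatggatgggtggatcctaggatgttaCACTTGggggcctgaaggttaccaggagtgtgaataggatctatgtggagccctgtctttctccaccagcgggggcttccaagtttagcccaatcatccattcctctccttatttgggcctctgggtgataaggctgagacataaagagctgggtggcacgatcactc
Chrna1, Chrnb1 and Chrng each held 3 E-boxes, Chrne and Myl7 held 1 and Tnnc1 held 2. A match is a description of letters and says nothing of binding.

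The probes behind the largest differences are printed because the array reads only these 60 bases of each transcript. Coordinates are mm9 as the scanner files give them, and the interval given for the Tnnc1 probe is longer than its 60 bases, as for 14 of the 62 probes. The exon of each probe was not analysed here. The 3 nebulin probes are given in 5′ to 3′ order by position on the minus strand.
Tnnc1, chr14:32023360-32023776, plus strand: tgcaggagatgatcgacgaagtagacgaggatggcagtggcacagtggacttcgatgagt
Neb, 5′-most, chr2:52097549-52097608, minus strand: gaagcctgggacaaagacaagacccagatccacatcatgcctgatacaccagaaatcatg
Neb, middle, chr2:52077301-52077360, minus strand: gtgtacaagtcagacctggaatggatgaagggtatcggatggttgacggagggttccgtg
Neb, 3′-most, chr2:51992837-51992896, minus strand: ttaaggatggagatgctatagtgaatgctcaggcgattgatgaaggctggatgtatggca

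Nearly all of the genes were detected in mTEC. Of the 46, 43 were well above background on all 6 mTEC arrays (93.5%, against 63.3% of all gene names), and 9 were on both SIEC arrays (19.6%, against 49.2%). All 7 cardiac, 9 shared and 7 synapse genes were detected on every mTEC array, with 20 of 23 skeletal genes. The exceptions were Mylpf, a fast skeletal light chain above background on 4 of 6 mTEC arrays, and Casq1, a calcium store protein of skeletal muscle, and Myf5, an early myogenic factor, which were above background on no array. Myf6, another myogenic factor, was above background on all 6 mTEC arrays.

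**Figure D1:**
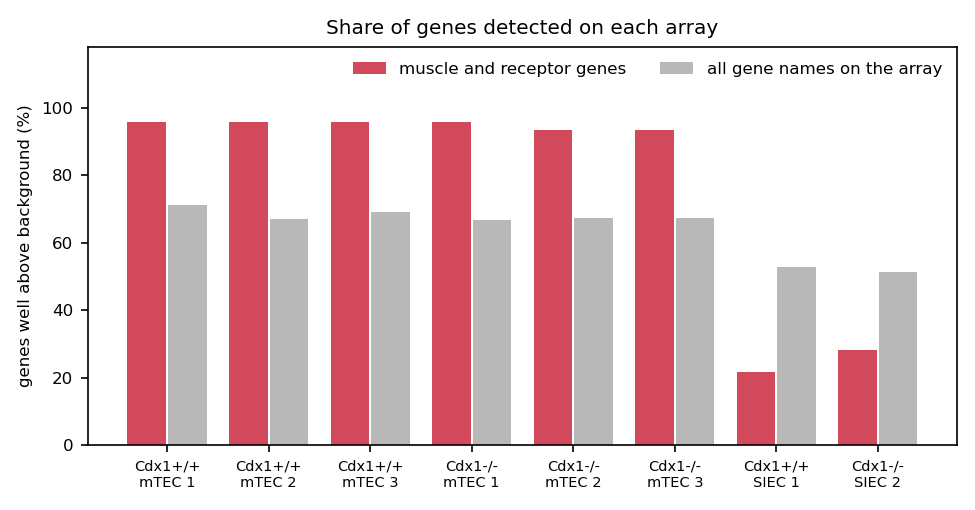
Percent of the 46 muscle and receptor genes (red) and of all gene names (grey) well above background, for each of the 8 arrays. The genes reach 93.5% to 95.7% on the mTEC arrays and 21.7% and 28.3% on the SIEC arrays, where all gene names reach 52.8% and 51.2%.

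**Figure D2:**
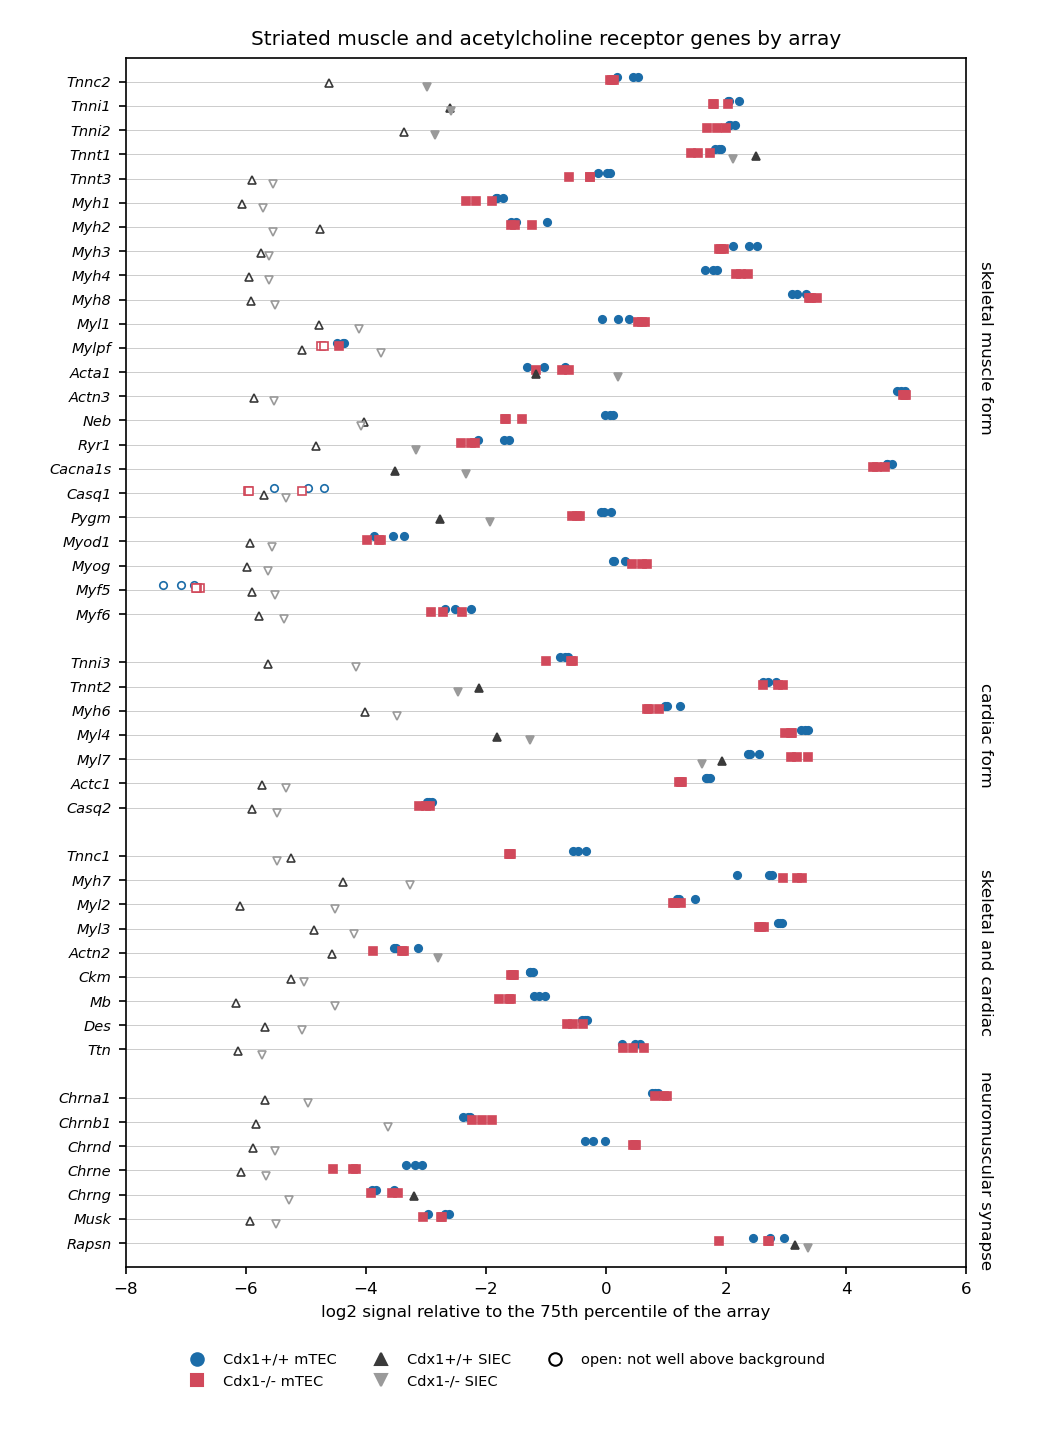
Log2 signal, with 0 at the 75th percentile on each array, for each gene (rows) and array (symbols by group), with open symbols where the probe was not well above background. Most mTEC symbols sit to the right of the SIEC symbols, and rows are not comparable with each other because each is a different probe.

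Between Cdx1-/- and Cdx1+/+ mTEC, 11 of the 44 genes tested passed (25%), against 12.9% of all genes tested. Of them 3 were higher in Cdx1-/- (6.82%, against 6.28% of all genes) and 8 were lower (18.2%, against 6.61%). The median difference was −0.18 for the 44 genes and 0.00 for all genes. The genotypes did not overlap for 26 of 44 genes (59.1%, against 38% of all genes). By form, 0 of 9 shared genes were higher and 4 lower, 1 of 21 skeletal genes was higher and 2 lower, and the cardiac and synapse groups each had 1 of 7 higher and 1 lower. Without Cdx1+/+ mTEC 3, 5 of the genes passed, 3 of them lower. In that setting 1054 of the 24338 genes tested passed, against 3137 in the main fit.

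Nebulin (Neb), the giant ruler protein of the skeletal thin filament, differed most. Its 5′-most probe read 0.07, 0.11 and −0.01 in Cdx1+/+ and −1.69, −1.41 and −1.67 in Cdx1-/- mTEC. The Cdx1-/- arrays were all below the Cdx1+/+ arrays, by 1.64 ± 0.11 (SE) on the log2 scale or 3.12-fold (limma, adjusted p = 0.00217). When the probes were tested apart, the middle probe differed by −1.30 and the 3′-most by −1.26, and both passed. The middle probe was above background on 3 of 3 Cdx1+/+ and 1 of 3 Cdx1-/- arrays.

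**Figure D3:**
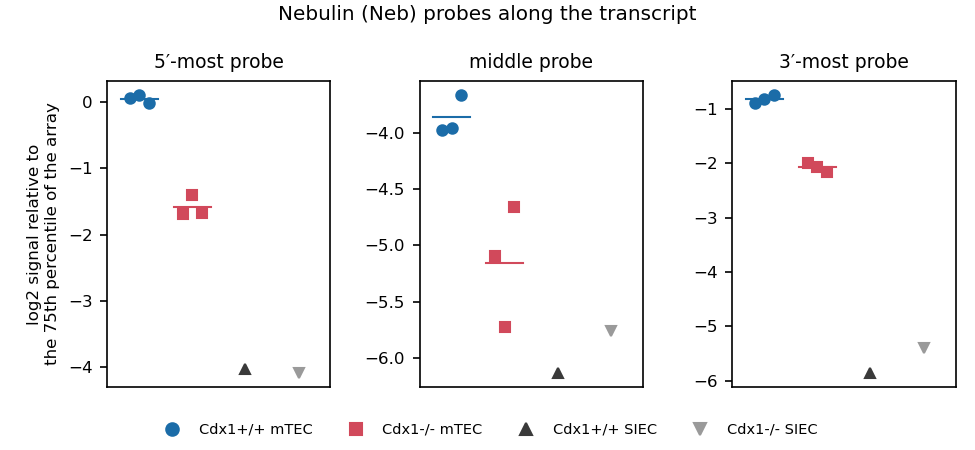
Log2 signal, with 0 at the 75th percentile on each array, for 3 nebulin probes in 5′ to 3′ order, by group, with lines at the mean of 3 mTEC arrays. In every panel the Cdx1-/- mTEC arrays lie below the Cdx1+/+ mTEC arrays, and both SIEC arrays were not above background for any of the 3 probes.

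Troponin C1 (Tnnc1), the calcium switch of slow skeletal and cardiac thin filaments, read −0.55, −0.34 and −0.46 in Cdx1+/+ and −1.61, −1.58 and −1.61 in Cdx1-/- mTEC. It fell by 1.15 ± 0.09 (SE), or 2.22-fold (limma, adjusted p = 0.00269), with no overlap of the arrays. Its fast skeletal counterpart Tnnc2 differed by −0.28 (95% interval −0.55 to −0.02) and did not pass. The other thin filament switch genes, Tnni1, Tnni2, Tnni3, Tnnt1, Tnnt2 and Tnnt3, ranged from −0.37 in Tnnt3 to 0.09 in Tnnt2, and none passed.

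The actin and light chain genes moved in both directions. Actc1, the cardiac actin, read 1.74, 1.67 and 1.69 in Cdx1+/+ and 1.24, 1.22 and 1.26 in Cdx1-/- mTEC and fell by 0.46 ± 0.08 (limma, adjusted p = 0.0151). Its adjusted p was 0.0563, 0.0591 and 0.0529 without Cdx1+/+ mTEC 1, Cdx1+/+ mTEC 3 and Cdx1-/- mTEC 2 (limma). Skeletal Acta1 differed by 0.17 (95% interval −0.32 to 0.66) and did not pass. Myl7, the atrial regulatory light chain, read 2.36, 2.55 and 2.40 against 3.19, 3.09 and 3.36 and rose by 0.78 ± 0.11 (adjusted p = 0.00908, limma). Myl3, the slow skeletal and ventricular essential light chain, read 2.87, 2.93 and 2.90 against 2.55, 2.58 and 2.63 and fell by 0.31 ± 0.08 (adjusted p = 0.0447, limma). With replicate numbers as a block Myl3 had an adjusted p of 0.0567, and within slide 1 it had −0.29 with adjusted p = 0.103 (limma). Myl1, Myl2, Myl4 and Mylpf did not pass, at 0.43, −0.12, −0.26 and −0.23.

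Of the myosin heavy chains Myh4, the adult fastest skeletal motor, passed. It read 1.79, 1.66 and 1.85 in Cdx1+/+ and 2.36, 2.26 and 2.16 in Cdx1-/- mTEC, higher by 0.49 ± 0.10 (limma, adjusted p = 0.0238), and within slide 1 alone by 0.44 (adjusted p = 0.0609, limma). The others lay between −0.41 for embryonic Myh3 and 0.58 for Myh7, the slow and cardiac motor. Of 2 eligible Myh8 probes the second differed by −0.30 where the first differed by 0.23, and neither passed. A second Myh3 probe, at −0.46, passed when probes were tested apart (adjusted p = 0.0407, limma).

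Mb, Pygm and Ckm, the 3 genes of energy and oxygen supply in the set, passed as lower. Mb, the oxygen store myoglobin, read −1.12, −1.21 and −1.02 in Cdx1+/+ and −1.61, −1.79 and −1.58 in Cdx1-/- mTEC and fell by 0.54 ± 0.10 (limma, adjusted p = 0.0187). Without Cdx1+/+ mTEC 1, Cdx1+/+ mTEC 3 or Cdx1-/- mTEC 2 its adjusted p was 0.0606, 0.0708 and 0.0558 (limma). With normexp it was 0.0554, and with no filter on dim probes 0.0532 (limma). Pygm, the muscle glycogen phosphorylase, read −0.08, 0.09 and −0.03 against −0.56, −0.44 and −0.49 and fell by 0.49 ± 0.09 (adjusted p = 0.0183, limma), with −0.46 within slide 1 (adjusted p = 0.0511, limma). Ckm, the muscle creatine kinase, read −1.26, −1.27 and −1.21 against −1.53, −1.59 and −1.54 and fell by 0.31 ± 0.08 (limma, adjusted p = 0.0451). Ckm had an adjusted p of 0.0579 with replicate numbers as a block and 0.0866 within slide 1 (limma). Its call ended in 13 of 17 alternatives, some of which coincide. No other scaffold, excitation or regulator gene passed. Ttn (titin) differed by 0.02 by its brightest probe. Its other eligible probes differed by −0.12 and −0.56, and neither passed when probes were tested apart. Des differed by −0.17, Actn3 by 0.06, Ryr1, the calcium release channel, by −0.47 (adjusted p = 0.0446 with replicate numbers as a block, limma) and Cacna1s, its voltage sensor, by −0.17. Myog (myogenin) differed by 0.38 with adjusted p = 0.0593, or 0.0451 with replicate numbers as a block, and Myod1 and Myf6 by −0.24 and −0.19 (limma).

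**Figure D4:**
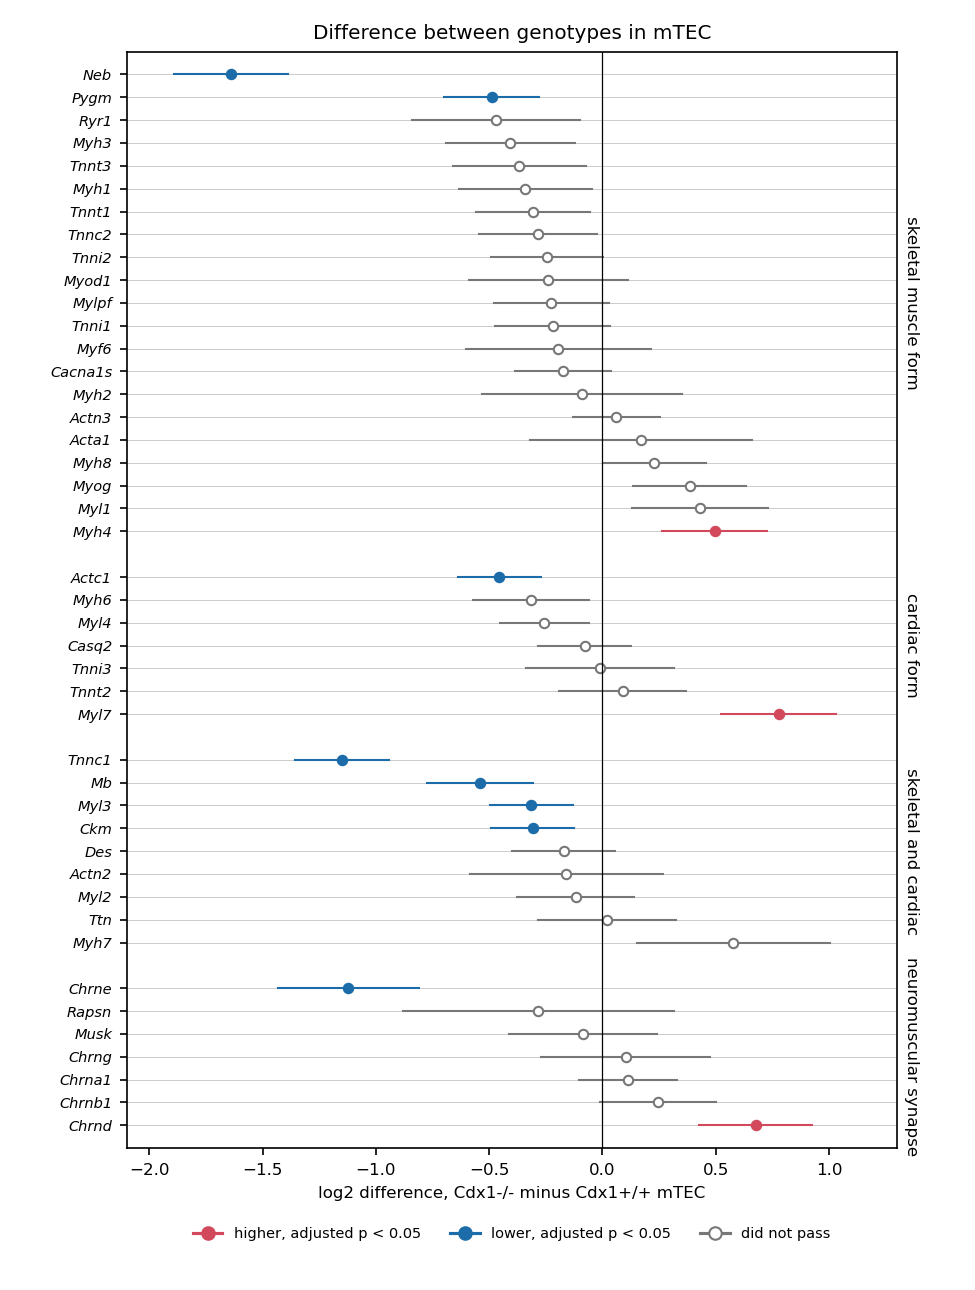
Log2 difference between Cdx1-/- and Cdx1+/+ mTEC for the 44 genes tested, grouped by form, with 95% intervals of each difference. Filled points passed an adjusted p under 0.05; the largest fall is Neb at −1.64 and the largest rise is Myl7 at 0.78.

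The receptor subunits did not move together. Chrne, the adult epsilon subunit, read −3.33, −3.06 and −3.18 in Cdx1+/+ and −4.21, −4.17 and −4.54 in Cdx1-/- mTEC and fell by 1.12 ± 0.13, or 2.18-fold (limma, adjusted p = 0.0061). Its call ended with normexp background correction, at −0.45 and adjusted p = 0.0786 (limma). Chrnd, the delta subunit, read −0.21, −0.35 and −0.02 against 0.51, 0.48 and 0.46 and rose by 0.68 ± 0.10 (adjusted p = 0.0121, limma).
Chrna1, the alpha subunit that carries most of the acetylcholine binding site, read 0.77, 0.82 and 0.87 against 0.81, 0.97 and 1.02, and differed by 0.11 (95% interval −0.10 to 0.33). Chrnb1, the beta subunit, read −2.26, −2.39 and −2.29 against −1.91, −2.23 and −2.07, higher by 0.24 (95% interval −0.01 to 0.50). Chrng, the fetal gamma subunit, read −3.89, −3.53 and −3.83 against −3.46, −3.56 and −3.92, a difference of 0.10 (95% interval −0.27 to 0.48). None of Chrna1, Chrnb1 and Chrng passed. Of the organisers, Musk read −2.96, −2.62 and −2.68 against −3.04, −2.73 and −2.74, and Rapsn 2.45, 2.96 and 2.73 against 1.89, 2.72 and 2.69. Their differences of −0.09 and −0.28 did not pass, and the lowest Rapsn array was Cdx1-/- mTEC 1.

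**Figure D5:**
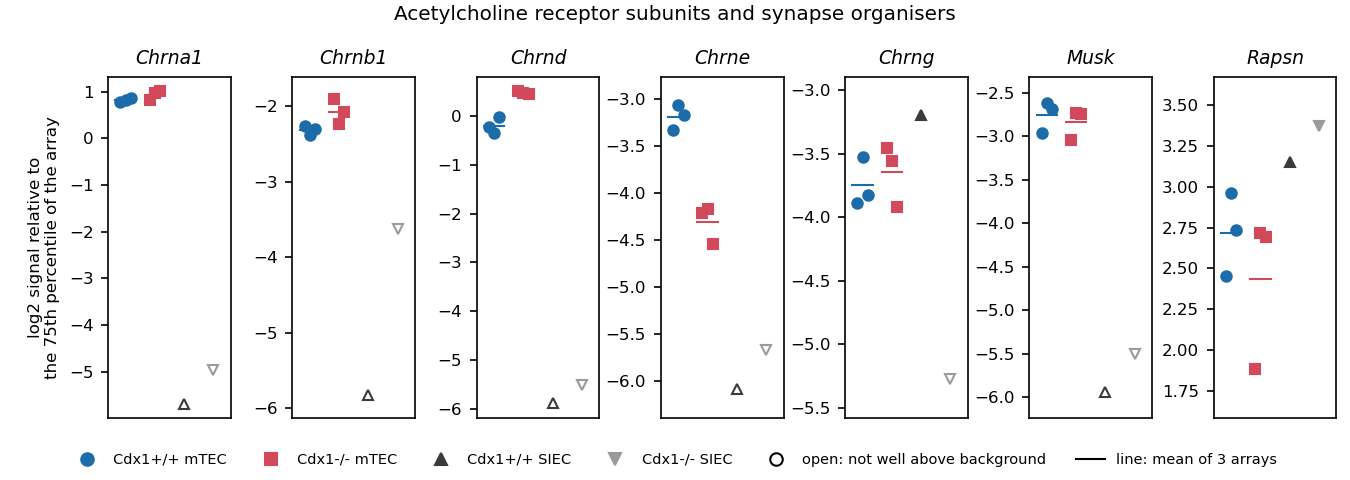
Log2 signal, with 0 at the 75th percentile on each array, for 5 receptor subunits, Musk and Rapsn, each panel with its own axis, by group and with lines at the mean of 3 mTEC arrays. The genotypes separate for Chrnd and Chrne in opposite directions, and open symbols mark probes not well above background.

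Several of the genes are neighbours on their chromosomes, and no test of a difference between neighbours was run. On chromosome 1 the probes of Chrnd, which rose, and Chrng, which differed by 0.10 and did not pass, are 9.43 kb apart in mm9. In the myosin cluster on chromosome 11 the probes of Myh4, which rose, and Myh1, at −0.34 and not past the test, are 35.8 kb apart. Chrnd and Chrng thus had the same sign, and Myh4 and Myh1 opposite signs. Other neighbours went either way, and some of them follow. Myh4 and Myh8, 48 kb apart, were at 0.49 and 0.23, and Myh8 did not pass. On chromosome 7 Tnni2 and Tnnt3, 68.2 kb apart, were at −0.24 and −0.37, and neither passed. On chromosome 14 the probes of Myh6, at −0.32, and Myh7, at 0.58, are 28.7 kb apart, and neither gene passed.

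The other genes of these pathways are given by count, beside 6.28% higher and 6.61% lower over all genes tested, and nothing particular to a list is read from them. Of 39 other sarcomere and costamere genes 5 were higher (12.8%) and 7 lower (17.9%) in Cdx1-/-, with Myot at 0.97, Pdlim3 at 0.75, Csrp3 at −1.11 and Ankrd1 at −0.78. Of 21 other excitation genes 2 were higher (9.52%) and 1 lower (4.76%), near the shares of all genes, with Cacng1 at 1.04 and Cacna2d1 at −0.86. Of 13 other energy genes Cox6a2, a muscle cytochrome oxidase subunit, fell by 0.58, Fabp3, a fatty acid carrier, fell by 0.36, and the other 11 did not pass (15.4% lower). Of 13 other junction genes 3 fell (23.1%). Ache, the acetylcholinesterase, fell by 0.45 and Agrn, the nerve signal that activates Musk, by 0.43. Col13a1 was well above background on 3 of 3 Cdx1+/+ and 0 of 3 Cdx1-/- arrays and was lower in Cdx1-/- by at least 0.59 on the log2 scale. Of 9 neuronal receptor genes Chrnb4 fell by 0.76 and Chrna2 by 0.79 (22.2% lower). Of 21 other muscle regulators 2 were higher (9.52%) and 7 lower (33.3%), among them Gata4, Nkx2-5 and Hand1, heart regulators, at −1.20, −0.91 and −1.47, and Msc at 0.75.

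Markers of other cell types were read beside these results, and their part in them was not tested. Over all genes tested 6.28% were higher and 6.61% lower in Cdx1-/- mTEC. Of 8 smooth muscle markers tested 2 were higher (Smtn, Synpo2) and 0 lower, and their summed linear level was 31.7 to 35.9 in Cdx1+/+ and 31.4 to 34.7 in Cdx1-/- mTEC. Of 7 mesenchymal markers 1 was lower (Pdgfrb), with a sum of 20.9 to 24.5 and 20.3 to 24.2. Of 5 endothelial markers 1 was higher (Vwf), with a sum of 7.68 to 9.40 and 8.71 to 10.4. Of 9 leukocyte markers none passed, with a sum of 14.1 to 20.4 and 9.57 to 14.0, and of 6 nerve markers 2 were lower (Elavl4, Sox10), with a sum of 3.59 to 3.78 and 3.28 to 3.41. Of 10 enterocyte markers 8 were lower in Cdx1-/- mTEC, with a sum of 30.5 to 34.9 and 15.4 to 16.3. Pdgfra among the mesenchymal and Emcn among the endothelial markers were not well above background on any mTEC array.

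Against SIEC, 38 of 44 genes tested were higher in mTEC (86.4%, against 34.3% of all genes tested), 2 were lower (4.55%, against 49.3%) and 4 did not pass (limma). Over all genes 83.6% passed in either direction. The fitted median difference was 4.27 for the 44 genes, or 3.22 with 29 of them at their lower bound, and −0.43 for all genes as fitted. Tissues did not overlap for 40 of 44 (90.9%, against 82.1% of all genes). For 29 of the 38 no SIEC array was well above background, so the fold is a lower bound from the dimmest detected probe. Those 29 entered the test through mTEC alone, so that the count and the median are a description. On slide 2 alone, the Cdx1-/- mTEC 1 array exceeded the array labelled Cdx1-/- SIEC in 39 of 44 genes. That count is a description too, since the 44 include the same 29, and the share over all genes was not computed. With normexp the split over all genes moved from 41.1% to 29.3% of calls higher in mTEC, and the genes from 38 higher and 2 lower to 32 and 4.

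The largest difference was in Actn3, the alpha-actinin of fast fibres, which read 4.84, 4.92 and 4.98 in Cdx1+/+ mTEC, 4.95, 5.00 and 4.98 in Cdx1-/- mTEC and −5.86 and −5.53 in SIEC. It was at least 426-fold higher in mTEC, a bound because no SIEC array was well above background. The fitted difference was 10.6 on the log2 scale (adjusted p = 2.34e-09, limma). Actn3 entered the test through mTEC alone, so that difference and its p are a description. The brightest probe of Myh8, the perinatal myosin, read 3.19, 3.11 and 3.34 in Cdx1+/+ mTEC and 3.52, 3.42 and 3.38 in Cdx1-/- mTEC. In SIEC it read −5.92 and −5.51, at least 138-fold lower than in mTEC. The second eligible Myh8 probe, above background on no SIEC array, differed by only 0.77 on the log2 scale as fitted, so the size depends on the probe. For the brightest probes of Actn3 and Myh8 the arrays of the tissues did not overlap.

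Of the genes whose mTEC values by genotype are given above, Myl3 read −4.86 and −4.21 in SIEC and was at least 92.6-fold higher in mTEC. Myh4 read −5.95 and −5.62 and was at least 55.8-fold higher. Actc1 read −5.73 and −5.33 and was at least 38.3-fold higher. None of the 3 was well above background on a SIEC array. Myh7 read 2.18, 2.71 and 2.77 in Cdx1+/+ mTEC, 3.18, 3.26 and 2.96 in Cdx1-/- mTEC and −4.38 and −3.26 in SIEC, at least 89.3-fold higher. Myl2, the ventricular regulatory light chain, read 1.18, 1.22 and 1.48, then 1.11, 1.15 and 1.26, and −6.09 and −4.51 in SIEC, at least 32.5-fold higher. Cacna1s was measured in both tissues. It read 4.68, 4.68 and 4.77 in Cdx1+/+ mTEC, 4.52, 4.65 and 4.45 in Cdx1-/- mTEC and −3.52 and −2.33 in SIEC, a 188-fold difference. The fold was 117 without the array labelled Cdx1+/+ SIEC and 302 without the array labelled Cdx1-/- SIEC.

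Among the synapse genes, Chrna1 (at least 25.4-fold by its brightest probe), Chrnd (at least 15.3-fold) and Chrnb1 (at least 3.03-fold) were higher in mTEC, and Musk at least 1.99-fold. The second eligible Chrna1 probe was also above background on no SIEC array. It differed by only 3.09 on the log2 scale as fitted, less than the brightest probe, so the size for Chrna1 depends on the probe. With normexp the calls of Musk (0.30), Casq2 (0.15), Myf6 (0.24) and Ryr1 (0.31) ended. Chrne, at −6.09 and −5.67 in SIEC, was at least 1.03-fold higher and turned to −0.19 with normexp, as did Myod1 at −0.06. Chrng read −3.20 and −5.28 in SIEC, above background only on the array labelled Cdx1+/+, and did not pass. Rapsn, at 3.15 and 3.37 in SIEC, and Tnnt1, the slow skeletal troponin T, at 2.49 and 2.12, were lower in mTEC by −0.69 and −0.59. In mTEC Tnnt1 read 1.88, 1.82 and 1.92 in Cdx1+/+ and 1.42, 1.54 and 1.74 in Cdx1-/-. With quantile normalization the Rapsn and Tnnt1 differences were −0.01 and −0.03 and neither passed. Rapsn also did not pass without Cdx1+/+ mTEC 1, Cdx1+/+ mTEC 3 or the array labelled Cdx1-/- SIEC, at adjusted p = 0.0714, 0.057 and 0.298 (limma).

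In the SIEC pair 9 genes were above background on both arrays, and 2 of the 9 (22.2%, against 4.59% of all genes, with 3.42% higher and 1.17% lower on the array labelled Cdx1-/-) were at least 2-fold apart, with 1 array a side and no test. Acta1 read −1.17 and 0.19 on those labelled Cdx1+/+ and Cdx1-/-. Cacna1s read −3.52 and −2.33. With normexp neither reached 2-fold. Tnni1, Tnnt1, Tnnt2, Myl4, Myl7, Rapsn and Pygm differed by −0.37 to 0.85.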

How the data were processed

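Single-colour arrays of 8 samples were read. Intensity values (processed signal, mean signal, background median and quality flags) were deposited by the authors as Agilent Feature Extraction output, version 10.7.3.1 per the file headers, with coordinates of mm9. Another deposited table of normalized values served as an alternative. The deposited other columns (flags for background and outliers) were used as given.

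Control and outlier spots were left out, and spots of a probe were averaged as log2 processed signal minus the 75th percentile of the array. Probes entered the fit where 2 or more arrays of an mTEC genotype had them well above background (or 1 SIEC array, between tissues), and the brightest such probe stood for its gene. limma 3.58.1 in R 4.3.3 was fitted over all genes, with genotype as a term between tissues, at a Benjamini-Hochberg adjusted p of 0.05. The limma fits, and no other step, were tested on simulated data. The number of arrays limits the precision. The labels call the mTEC samples independent replicates, and exact permutation of 3 against 3 arrays cannot go below 0.1.

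Same-numbered mTEC arrays deviated together (correlations 0.322, 0.147 and 0.148, by the numbers in the labels), so the numbers may pair the samples. The fit reported is without the block, and the block is an alternative, given where it changes a call. Genes and lists were chosen with earlier results of these data known. Every gene is accounted for. Per-array values are given for those that passed between genotypes and for the receptor and organiser genes. They are also given for the 8 largest fitted differences higher in mTEC and the 2 genes that were lower. A ranking by lower bound would differ, with Myh3, at least 56.7-fold higher in mTEC, above Myh4, Actc1 and Myl2. Of other lists up to 4 genes of smallest p are named.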

Additional observations from a re-analysis of the deposited data

Results flagged for a closer look

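By the labels, the difference between genotypes of Myl7 and Pygm had opposite signs in mTEC and in the SIEC pair, and the difference between tissues was not tested. Myl7 was higher by 0.78 in Cdx1-/- mTEC and differed by −0.33 in SIEC, from 1.93 on the array labelled Cdx1+/+ to 1.60 on the array labelled Cdx1-/-. Pygm fell by 0.49 in mTEC and differed by 0.85 in SIEC, from −2.77 to −1.93. The SIEC labels run against the Cdx1 probe, and SIEC has 1 array a side. With the SIEC labels turned, the differences are 0.33 for Myl7 and −0.85 for Pygm. The signs then match mTEC by construction, because both genes were chosen for opposite signs, so the match says nothing of the labels.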

How the results depend on the processing

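Of the 11 calls between genotypes, Neb, Tnnc1, Myl7 and Chrnd held in all 17 alternatives, and 31 of the 40 calls between tissues held in all 18. Of those 40, 29 entered the test through mTEC alone, so the count between tissues is a description. The share of calls that held over all genes was not computed for either comparison. The alternatives are not separate checks, since several coincide. Between genotypes, slide as a block, slide 1 only and leaving out Cdx1-/- mTEC 1 gave the same count, as that was the only mTEC array on slide 2. The median and the authors' table both called 2996 genes, and fitting all 8 arrays together called 3137, as in the main fit. Between genotypes, all genes called numbered 1971 with normexp, 1322 with no filter on dim probes, and 1779 with slide as a block or within slide 1 only, and 1054 to 1779 without each replicate. Genes of the set called numbered 7, 6, 7 and 7 in those settings, of which 4, 4, 5 and 5 were lower; leaving out a replicate gave 5 to 8 called and 3 to 6 lower, with the fewest without Cdx1+/+ mTEC replicate 3. Normexp and no filter on dim probes ended the calls of Mb, Ckm and Myl3, no filter also those of Myh4 and Pygm, and the median and the authors' table those of Ckm and Myl3. The replicate block gave 4 higher and 7 lower, ended the calls of Ckm (−0.31) and Myl3 (−0.31), added Myog and Ryr1 and changed no other call of these genes. The calls of Ckm and Myl3 ended without any of the 6 mTEC arrays, that of Myh4 without any but Cdx1-/- mTEC 3, and that of Pygm without Cdx1+/+ mTEC 2 or 3 or Cdx1-/- mTEC 1 or 3, with no change of direction. Between tissues the call of Myl7 ended with the median or the authors' table (0.58). The lower genes numbered 4 with normexp, 0 with quantile normalization and 1 to 5 without each replicate. With gIsPosAndSignif in place of the background flag 26 genes were detected on both SIEC arrays, against 9. By that flag the arrays labelled Cdx1+/+ and Cdx1-/- SIEC had 28 and 31 of the 46 genes, and 74.5% and 74% of all gene names. The gap to all genes in SIEC was thus smaller with that flag. The SIEC pair had 0 genes at 2-fold with normexp and 1 in the authors' table.

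Genes turned sign as follows (all but Chrne and Myod1 between tissues had not passed), the cause not tested. Between genotypes, normexp gave Chrng −0.12 and Tnni3 0.0031, the median and the authors' table gave Tnni3 0.0011, the mean of probes gave Myh8 −0.034 and Ttn −0.22, and slide as a block or within slide 1 gave Actn2 0.0068, Musk 0.017 and Ttn −0.069. Leaving out a replicate gave Ttn −0.07 to 0.10, Myh2 −0.20 to 0.10, Tnni3 −0.093 to 0.13, Actn2 −0.25 to 0.0068 and Musk −0.19 to 0.017. Between tissues, normexp gave Actn2 −0.53, Chrne −0.19, Chrng −0.54 and Myod1 −0.059; Actn2 was −0.26 with quantile, median or the authors' table, −0.45 with slide as a block and −1.08 within slide 2. Leaving out an array gave Actn2 −0.74 to 1.18, Acta1 −1.03 to 0.16, Chrng −0.55 to 1.63 and Mylpf −0.88 to 0.66. The precision is limited by the 3 arrays a genotype and 1 SIEC array a side, and by SIEC probes at background.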
